A study of Drosophila melanogaster with 18 samples.

Results

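CG42362, CG42363, CG3448 and PolZ2 were the 4 genes, of 17494 in each exon count table, that exceeded their WT level in M1BP RNAi fat bodies at an adjusted p under 0.001 in a fit of all male libraries. They were chosen by that comparison, which is described here without a test. It had 11723 tested genes, of which these 4 were 0.0341%, and no gene was lower at that threshold. DESeq2 called 405 genes higher there, or 3.28%, the 4 members among them, and 537 lower, and edgeR without a filter on low counts called 13 higher and 1 lower. RNA-seq was available for fat bodies of male larvae of the third instar in the feeding stage (L3F) with gonads removed, in 4 genotypes of 2 libraries each. All of them carried cgGal4, a driver of the fat body that is also active in hemocytes: cgGal4>WT (WT), cgGal4>M1BP-RNAi (M1BP RNAi), cgGal4>HA::ZKSCAN3 (ZKSCAN3) and cgGal4>M1BP-RNAi;HA::ZKSCAN3 (M1BP RNAi + ZKSCAN3). ZKSCAN3 is a vertebrate zinc finger protein, tagged with HA according to the sample labels, and each preparation pooled fat bodies of several larvae. Wild type female larvae without a driver gave 2 L3F and 2 wandering stage (L3W) libraries. ChIP-seq peaks of the HA-tagged proteins ZKSCAN3 and ZKSCAN4 came from stable S2 cell lines, which derive from late embryos and are not fat body.

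M1BP is a zinc finger transcription factor that binds Motif 1, a sequence of many core promoters. PolZ2 is the accessory subunit of DNA polymerase zeta, also called rev7 or mad2B, which together with the catalytic subunit PolZ1 extends DNA chains past damaged bases in translesion synthesis. CG3448, CG42362 and CG42363 have only CG numbers as symbols, and what they encode is not described here.

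The 4 genes occupied 3 loci. CG42362 (FBgn0259708) and CG42363 (FBgn0259709) had the same coordinates in the count table, chr2R:21664126-21666108 on the plus strand of dm6, and shared all 1930 exonic bases. They are 2 open reading frames of the same transcripts, the first of 152 codons at 21664514 to 21664969 and the second of 154 codons at 21665192 to 21665653. Their counts were equal in 12 of 12 libraries, so that every value below for CG42362 is also that of CG42363 and the 2 genes are 1 measurement. CG3448 (FBgn0035996) is a gene of 1 exon and 1028 bp on the minus strand, chr3L:9450545-9451572, with a coding region of 235 codons. PolZ2 (FBgn0037345) is a gene of 1 exon and 831 bp on the plus strand, chr3R:5588873-5589703, with a coding region of 198 codons.

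Reads were counted without strand, and a read over more than 1 gene entered the count of each. CG3448 shared 241 exonic bases with CG3529 on the other strand, PolZ2 shared 103 with noi, which encodes a subunit of the SF3a splicing factor, and CG42362 shared 169 with CG42364 downstream on its own strand. The lowest possible number of a member's unshared reads is its count minus that of its overlapping gene, as if all reads of that gene were shared. This left at least 655 and 908 of the PolZ2 reads, 241 and 395 of the CG3448 reads and 6213 and 7662 of the CG42362 reads in the M1BP RNAi libraries. The lowest of these levels was 3.25 times the highest total WT level for PolZ2, 1.2 times for CG3448 and 15.8 times for CG42362. In the other libraries the partners CG3529 and noi had more reads than CG3448 and PolZ2, so that no such lower limit above 0 exists there.

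Upstream of CG3448 and PolZ2 lie short stretches between divergent genes, where a ZKSCAN3 peak covered the start of each. CG3448 and ghi start 303 bp apart and PolZ2 and CG2926 start 492 bp apart, whereas the nearest divergent start to CG42362 is that of pirk at 1130 bp. A divergent start under 500 bp away was found for 29.7% of all tested genes. The 250 bases before each of these starts are shown 5′ to 3′ on the strand of the gene. Capitals mark matches to any of 4 promoter motifs. These stretches lie within the ZKSCAN3 peaks, which are wider (3061 bp at CG3448 and 1618 bp at PolZ2), and form the upstream part of the motif window. They run from 9451573 to 9451822 on the minus strand of chromosome arm 3L and from 5588623 to 5588872 on the plus strand of 3R in the Release 6 assembly of RefSeq.
CG3448: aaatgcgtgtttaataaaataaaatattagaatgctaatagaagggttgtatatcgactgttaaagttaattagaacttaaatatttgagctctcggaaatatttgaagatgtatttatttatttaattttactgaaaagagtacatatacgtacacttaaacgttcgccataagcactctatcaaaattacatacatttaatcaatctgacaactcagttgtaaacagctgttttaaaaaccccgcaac
PolZ2: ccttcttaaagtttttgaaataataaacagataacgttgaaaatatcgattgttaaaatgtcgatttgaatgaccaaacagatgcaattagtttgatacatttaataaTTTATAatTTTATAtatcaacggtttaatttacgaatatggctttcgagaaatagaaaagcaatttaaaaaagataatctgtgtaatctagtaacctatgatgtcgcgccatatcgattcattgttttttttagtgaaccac
The motifs searched on both strands, in the window from 250 bases before to 50 after the start, were the core of Motif 1 (GGTCACAC), the core of the DRE (TATCGATA), a GATA site (GATAAG) and a TATA box (TATAAA). No letters matched in the CG3448 window, and PolZ2 had 2 matches to TATAAA, both on the other strand, the first of them 142 bases before the start. None of the 3 loci held GGTCACAC, which was present in 9.23% of 11672 promoter windows of tested genes, and none held TATCGATA (10.9%) or GATAAG (19.7%). TATAAA was in 44.2% of those windows, in PolZ2 and at both starts of CG42362, with 6 matches at the first start, some of them overlapping, and 2 at the second. The GC content of the 2 printed stretches was 28.0% and 26.8%, beside a median of 36.4% over all windows (10th percentile 28.4%).

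**Figure D1:**
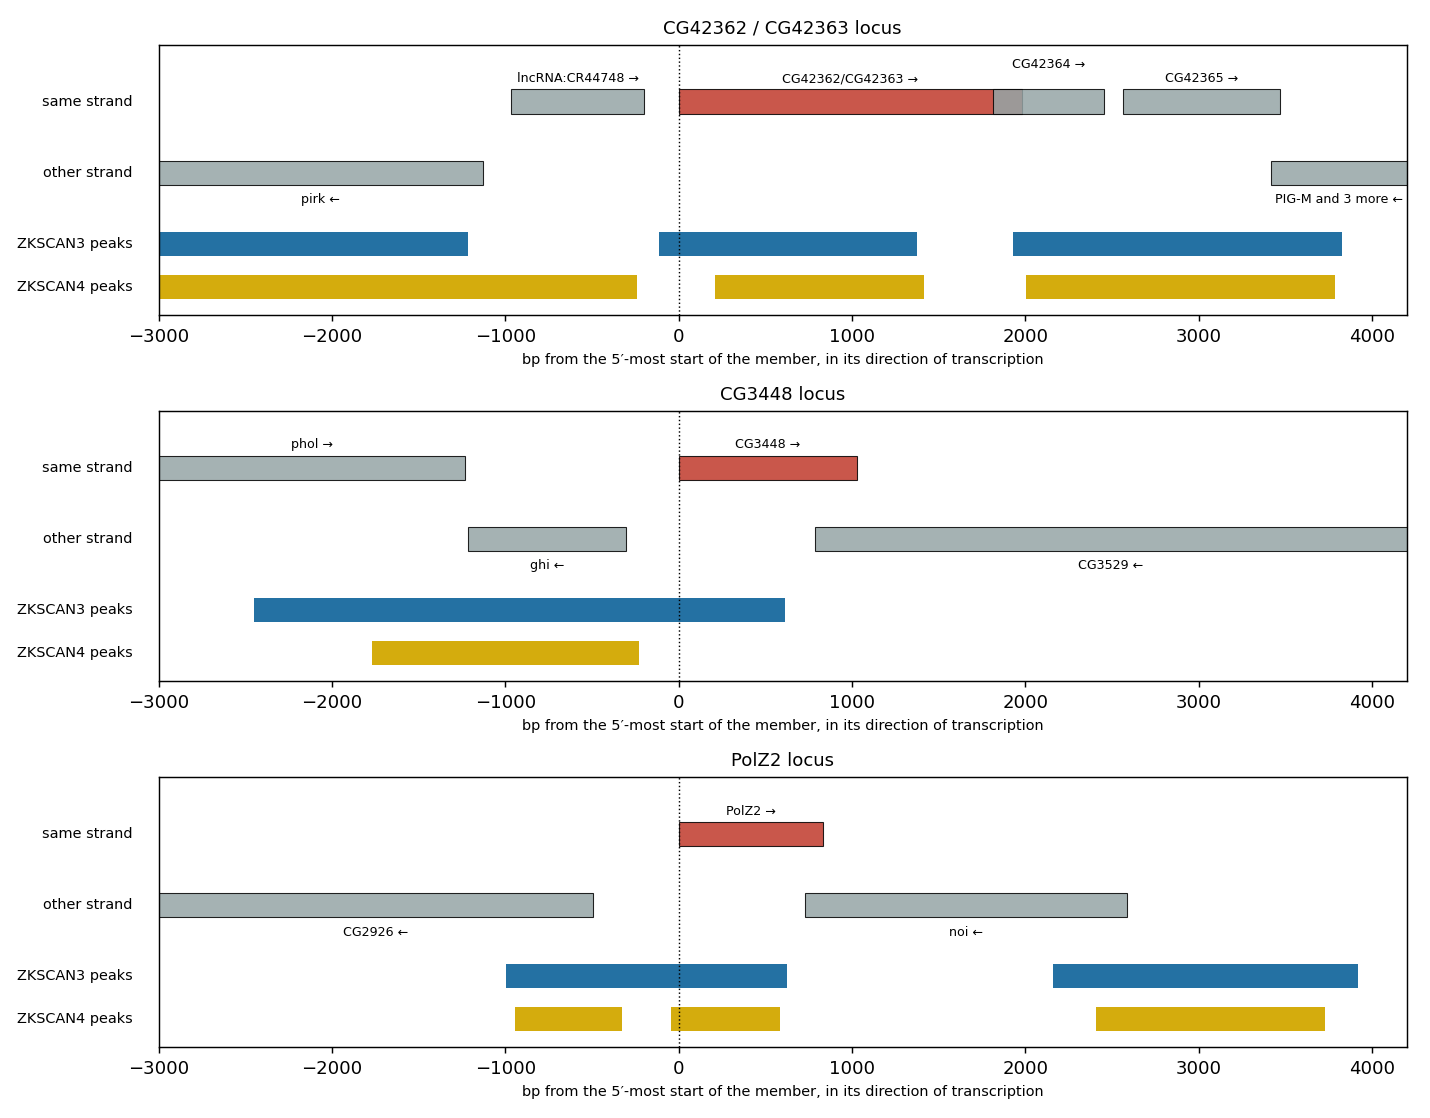
Gene spans (bars, arrows give the direction relative to the member) and S2 cell peaks of ZKSCAN3 and ZKSCAN4 around the 3 loci, against the distance in bp from the member's 5′-most start. ZKSCAN3 peaks cover all 3 starts, and each member (red) overlaps a neighbouring gene near its 3′ end.

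The 12 RNA-seq libraries held between 53462739 and 76798943 counts in males and between 58313885 and 74175081 in females. M1BP itself checked the labels, as the libraries with the RNAi were lower than those without. Its level in CPM, counts scaled to library size with TMM factors, was 15.7 and 17.0 for WT, 13.2 and 15.1 for ZKSCAN3, 6.57 and 7.02 for M1BP RNAi and 8.25 and 8.52 for M1BP RNAi + ZKSCAN3. All 7 fat body markers were present in every library, with a summed level of 396224 to 439432 CPM in WT and ZKSCAN3 and of 186985 to 301412 CPM in the 4 M1BP RNAi libraries. The 17 testis markers summed to 107 CPM in M1BP RNAi 1 and to 5.83 to 23.0 CPM in the other male libraries. The 10 salivary gland markers summed to 607 CPM in M1BP RNAi 1, 36.4 CPM in M1BP RNAi 2, 584 and 813 CPM in M1BP RNAi + ZKSCAN3 and 7.63 to 31.6 CPM in WT and ZKSCAN3. Markers of hemocytes (9 genes) were at 108 and 216 CPM in M1BP RNAi + ZKSCAN3 and at 862 to 1551 CPM in the other males, and those of muscle (9 genes) were at 71.3 to 148 CPM in the M1BP RNAi libraries and 329 to 443 CPM in WT and ZKSCAN3. The 8 midgut markers ranged from 88.1 to 546 CPM in the male libraries. The markers at 0 in both libraries of a male group were ng1 of the salivary gland in M1BP RNAi and lambdaTry of the midgut in M1BP RNAi and in the 4 WT and ZKSCAN3 libraries. The part of these cell types in the results below was not tested. In bulk tissue, fewer cells of a type and less RNA per cell cannot be told apart.

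In M1BP RNAi fat bodies the 3 loci stood far above WT, with both libraries of each group close together and no overlap between the groups, as for 34.1% of all tested genes. CG42362 had 5.14 and 5.89 CPM in WT and 102 and 99.7 CPM in M1BP RNAi, or 261 and 363 counts beside 6743 and 8220. This was an 18.3-fold difference, or 4.19 on the log2 scale (SE 0.18, n = 2 libraries per group). CG3448 had 3.05 and 2.94 CPM in WT and 31.6 and 30.1 CPM in M1BP RNAi, from 155 and 181 counts against 2089 and 2479. The difference was 10.3-fold (log2 3.36, SE 0.13). PolZ2 had 2.95 and 3.05 CPM in WT and 29.6 and 31.7 CPM in M1BP RNAi, from 150 and 188 counts against 1953 and 2616, a 10.2-fold difference (log2 3.35, SE 0.13). The M1BP RNAi libraries differed from each other by 0.03 (CG42362), 0.07 (CG3448) and -0.10 (PolZ2) on the log2 scale, library 1 minus library 2. The testis markers stood at 107 and 9.92 CPM and the salivary gland markers at 607 and 36.4 CPM in the same 2 libraries.

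These genes were not those with the largest fold changes. By log2 fold change CG42362 ranked at 623, CG3448 at 925 and PolZ2 at 932 of the 11723 tested genes, and at 47, 77 and 79 of the 4895 genes with a mean of at least 10 CPM in M1BP RNAi. The 4 genes stood just inside the threshold, each at an adjusted p of 0.00069 (edgeR quasi-likelihood test). Just outside it were Hsp26, a small heat shock protein (log2 4.69, adjusted p 0.00103), Ssrp, a subunit of the FACT histone chaperone (log2 3.79, adjusted p 0.00103), and eIF6, a factor of 60S ribosomal subunit maturation (log2 3.87, adjusted p 0.00106). Leaving out any 1 of the 8 libraries or fitting only the 2 groups left 0 genes past 0.001.

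**Figure D2:**
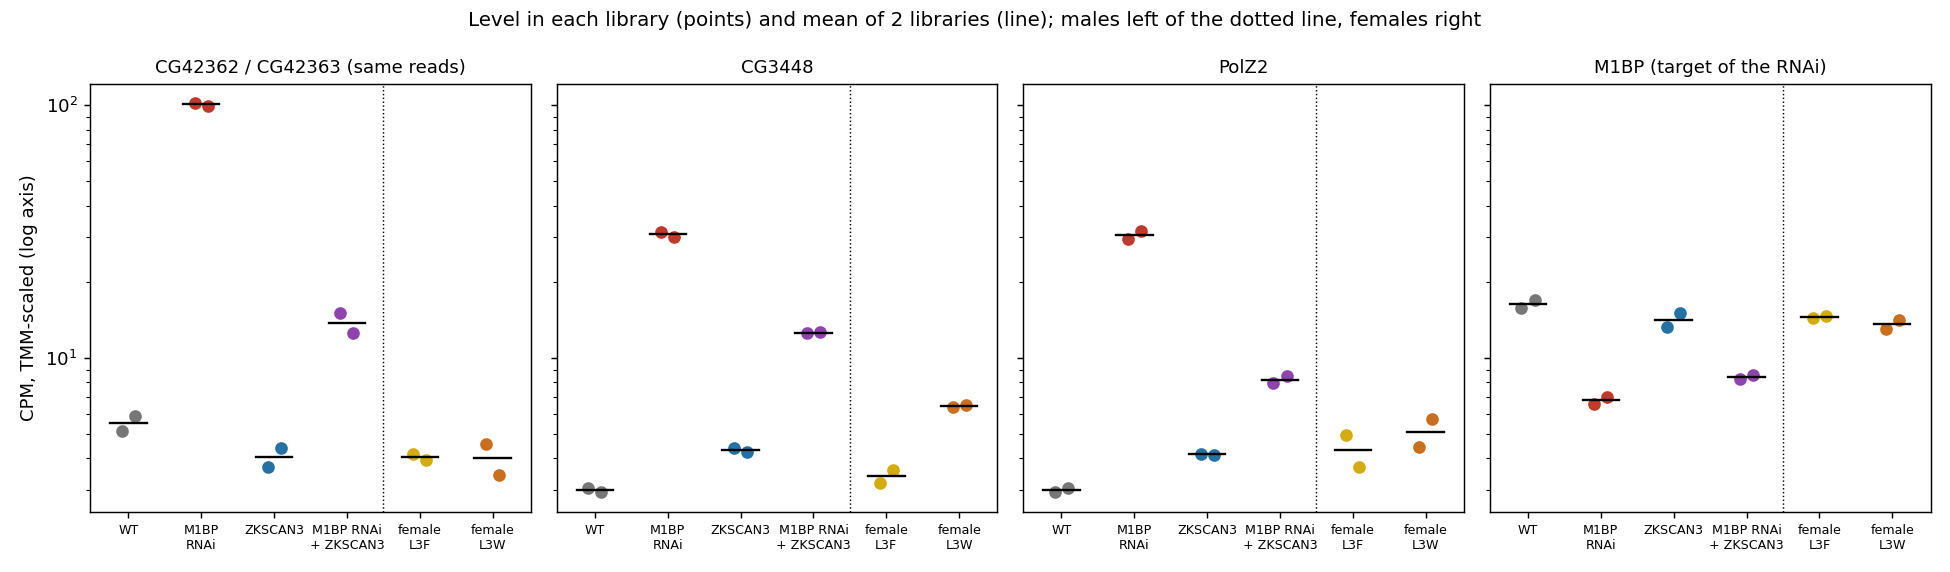
Level of each member and of M1BP in every library (points) with the mean of 2 libraries (lines), in CPM on a log axis; male genotypes are left of the dotted line and female stages, scaled apart, right of it. The M1BP RNAi libraries hold the highest member levels (102 and 99.7 CPM for CG42362), followed by M1BP RNAi + ZKSCAN3 (15.03 and 12.6 CPM).

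Whether M1BP knockdown also raised these genes where ZKSCAN3 was expressed was asked in M1BP RNAi + ZKSCAN3 against ZKSCAN3, 4 libraries that took no part in the contrast of the choice other than through the shared estimate of spread. All 3 loci were higher with the knockdown. CG42362 had 3.69 and 4.4 CPM in ZKSCAN3 and 15.03 and 12.6 CPM in M1BP RNAi + ZKSCAN3, a 3.41-fold difference (log2 1.77, SE 0.16, adjusted p 0.0118, edgeR quasi-likelihood test). CG3448 had 4.38 and 4.25 CPM in ZKSCAN3 and 12.57 and 12.62 CPM in M1BP RNAi + ZKSCAN3 (2.92-fold, log2 1.55, SE 0.12, edgeR adjusted p 0.00743). PolZ2 had 4.17 and 4.13 CPM against 7.93 and 8.47 CPM (1.98-fold, log2 0.98, SE 0.12, edgeR adjusted p 0.0188). In each of the 3 loci both knockdown libraries lay above both ZKSCAN3 libraries, as did those of 27% of all tested genes. Beside this stood the marker sums of M1BP RNAi + ZKSCAN3, with hemocyte markers at 108 and 216 CPM and salivary gland markers at 584 and 813 CPM, which in WT and ZKSCAN3 were at 862 to 1444 CPM and 7.63 to 31.6 CPM, and their part was not tested. At an adjusted p of 0.05, 4 of 4 members (3 of 3 loci) were higher, beside 2.8% of the 11723 tested genes. The choice of the members by p favours genes with a small estimate of spread. That estimate is shared with this comparison, so the count beside 2.8% is not an independent check. The median log2 fold change was 1.55 over the 3 loci, or 1.66 with CG42362 and CG42363 counted apart, beside -0.03 over all tested genes.

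At the threshold of 0.001 edgeR called 0 of the 11723 genes in this comparison (2700 genes, or 23%, had an unadjusted p under 0.05), while DESeq2 called 4 of 4 members beside 3.48% of its genes. The call of the members at 0.05 was lost with only these 2 groups in the fit (adjusted p 0.0926 for CG42362 and CG3448 and 0.145 for PolZ2), and that of PolZ2 without WT 1, WT 2, ZKSCAN3 1, ZKSCAN3 2 or M1BP RNAi + ZKSCAN3 2 (adjusted p up to 0.120). M1BP itself was 1.69-fold lower in M1BP RNAi + ZKSCAN3 than in ZKSCAN3 (log2 -0.76, SE 0.13, edgeR adjusted p 0.0387) and 2.41-fold lower in M1BP RNAi than in WT (log2 -1.27, SE 0.14). The knockdown effect on the members was thus log2 1.77, 1.55 and 0.98 with ZKSCAN3 against 4.19, 3.36 and 3.35 without it. The difference between these effects was not tested, because 1 of them chose the genes.

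**Figure D3:**
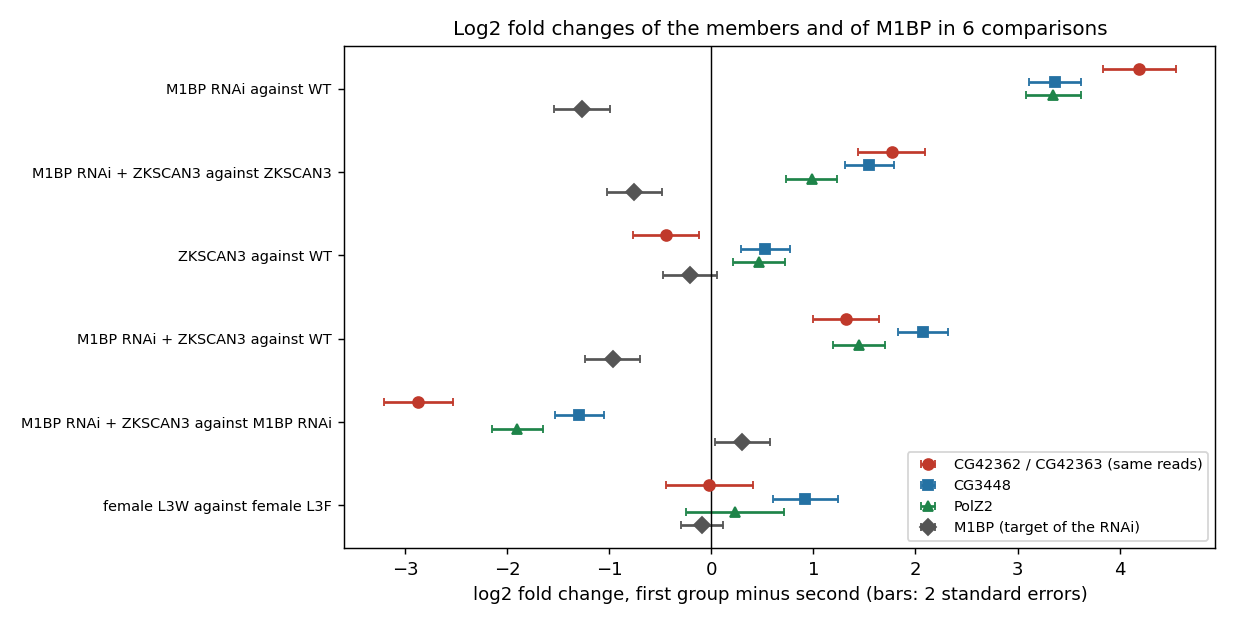
Log2 fold changes of the members and of M1BP in 6 comparisons, first group minus second, with bars of 2 standard errors. Members lie between 3.35 and 4.19 in M1BP RNAi against WT and between 0.98 and 1.77 in M1BP RNAi + ZKSCAN3 against ZKSCAN3, where M1BP is below 0.

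The remaining male comparisons share libraries with the choice and are given as values. Beside M1BP RNAi, the M1BP RNAi + ZKSCAN3 fat bodies had 7.31-fold less CG42362 (log2 -2.87, SE 0.17), 3.73-fold less PolZ2 (log2 -1.90, SE 0.13) and 2.45-fold less CG3448 (log2 -1.29, SE 0.12). They remained above WT by log2 1.32 for CG42362, 2.07 for CG3448 and 1.45 for PolZ2. By fold over WT, CG42362 was thus first of the 3 loci in M1BP RNAi and CG3448 first in M1BP RNAi + ZKSCAN3. By mean CPM, which is not corrected for exon length, the order was CG42362, CG3448 and PolZ2 in both. Single libraries departed from it. PolZ2 (31.7 CPM) was above CG3448 (30.1 CPM) in M1BP RNAi 2, and CG3448 (12.62 CPM) above CG42362 (12.55 CPM) in M1BP RNAi + ZKSCAN3 2. ZKSCAN3 alone differed less from WT, by log2 -0.45 for CG42362 (2 SE either side: -0.77 to -0.12), 0.53 for CG3448 (0.29 to 0.77) and 0.47 for PolZ2 (0.22 to 0.72). In ZKSCAN3 against WT edgeR called 0 of the 11723 tested genes at 0.05. The ranges rest on a spread that the choice of the members by p favoured to be small. The groups did not overlap at any of the 3 loci, as for 19.2% of all tested genes that were higher and 22.7% that were lower in ZKSCAN3.

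Per exon length the members were at a like level in WT and apart in the knockdown. In TPM, which divides counts by exon length before scaling, the WT means were 4.35 ± 0.22 for CG42362, 4.45 ± 0.32 for CG3448 and 5.51 ± 0.12 for PolZ2 (SD, n = 2). In M1BP RNAi they were 109 ± 14.3, 62.8 ± 9.40 and 76.8 ± 4.95 TPM in the same order, and in M1BP RNAi + ZKSCAN3 15.3 ± 0.77, 26.3 ± 2.1 and 21.2 ± 2.61 TPM. CG42362 was the highest of the 3 in M1BP RNAi and the lowest in M1BP RNAi + ZKSCAN3. On the TPM scale the median of all tested genes in M1BP RNAi was 0.37 higher relative to WT on the log2 scale than on the CPM scale, and the members moved with it, by 0.46 for CG42362.

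Females, in which no driver or RNAi was present, had member levels from 3.21 to 6.53 CPM, below those of both male M1BP RNAi genotypes. The tables were normalized apart, so male and female levels are set side by side without a test. L3F means were 4.06 ± 0.16 CPM for CG42362, 3.41 ± 0.29 for CG3448 and 4.33 ± 0.885 for PolZ2 (SD, n = 2). For CG42362 the order of the 6 groups was L3W (4.01 ± 0.78 CPM), ZKSCAN3 (4.05 ± 0.50), L3F, WT (5.51 ± 0.535), M1BP RNAi + ZKSCAN3 (13.8 ± 1.75) and M1BP RNAi (101 ± 1.63), of which the first 3 lay within their spread. For CG3448 it was WT (2.99 ± 0.08 CPM), L3F, ZKSCAN3 (4.31 ± 0.10), L3W (6.47 ± 0.08), M1BP RNAi + ZKSCAN3 (12.6 ± 0.04) and M1BP RNAi (30.8 ± 1.09). For PolZ2 it was WT (3.00 ± 0.07 CPM), ZKSCAN3 (4.15 ± 0.03), L3F, L3W (5.08 ± 0.90), M1BP RNAi + ZKSCAN3 (8.20 ± 0.38) and M1BP RNAi (30.6 ± 1.54), of which ZKSCAN3, L3F and L3W did not differ beyond their spread.

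L3W, when developmental autophagy takes place in the fat body, was compared with L3F as a change that needs no manipulation of M1BP. None of the members passed 0.001, where 4.27% of 10720 genes were higher. CG3448 had 3.21 and 3.62 CPM in L3F and 6.42 and 6.53 CPM in L3W, with no overlap between the stages, as for 38.6% of all tested genes. This 1.90-fold difference passed 0.05 (log2 0.92, SE 0.16, edgeR adjusted p 0.0116), as did 23.3% of all tested genes in that direction. Its overlapping neighbour CG3529 was higher in L3W by a like amount (log2 0.93, SE 0.10, edgeR adjusted p 0.00329), and all CG3448 reads of the female libraries could have been shared with it. Without L3W 1 or L3W 2 the adjusted p of CG3448 was 0.0844 or 0.0828. CG42362 had 4.17 and 3.95 CPM in L3F and 4.56 and 3.46 CPM in L3W, with a log2 difference of -0.02 (2 SE either side: -0.45 to 0.41, edgeR adjusted p 0.949). PolZ2 had 4.95 and 3.70 CPM against 4.45 and 5.71 CPM (log2 0.23, 2 SE either side: -0.25 to 0.71, edgeR adjusted p 0.476). The fat body markers summed to 419471 to 435574 CPM in L3F and 274577 to 287252 CPM in L3W. Libraries 1 and 2 of L3F differed in markers of the salivary gland (70.8 and 997 CPM), midgut (671 and 2.35 CPM) and testis (7.25 and 44.0 CPM). In L3W these sums were 14.5 and 43.9 CPM, 367 and 80.1 CPM, and 17.3 and 21.8 CPM in the same order. The part of these differences was not tested. M1BP differed by log2 -0.09 between the stages (2 SE either side: -0.29 to 0.12).

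Of the genes within 2000 bp, those downstream of CG42362 on the same strand had log2 fold changes of 5.15 and 3.77 in M1BP RNAi against WT, and those around CG3448 and PolZ2 lay between -0.17 and 0.53. In M1BP RNAi + ZKSCAN3 against ZKSCAN3 none of the tested neighbours passed 0.05. CG42364, which overlaps the end of CG42362, had 0.24 and 0.18 CPM in WT, 8.02 and 6.77 CPM in M1BP RNAi, 0.07 and 0.31 CPM in ZKSCAN3 and 1.35 and 1.31 CPM in M1BP RNAi + ZKSCAN3. Reads over the 169 bases shared with CG42362 were counted for both genes. Part or all of the 530 and 558 CG42364 counts in M1BP RNAi may thus be CG42362 reads. CG42365, which starts 578 bp beyond the end of CG42362 and shares none of its bases, had 6.26 and 10.0 CPM in WT, 110 and 112 CPM in M1BP RNAi, 7.26 and 6.44 CPM in ZKSCAN3 and 14.4 and 13.8 CPM in M1BP RNAi + ZKSCAN3. Its log2 fold change in M1BP RNAi against WT was 3.77, beside 4.19 for CG42362. In M1BP RNAi + ZKSCAN3 against ZKSCAN3 the values were log2 2.81 (SE 0.61, edgeR adjusted p 0.0567) for CG42364 and 1.04 (SE 0.23, edgeR adjusted p 0.0585) for CG42365.

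On the other strand beyond CG42365, PIG-M, a mannosyltransferase of GPI anchor synthesis, and CG42379, CG42380 and CG42381 had the same counts as each other, with log2 -0.29 in M1BP RNAi against WT and 0.14 in M1BP RNAi + ZKSCAN3 against ZKSCAN3 (edgeR adjusted p 0.791). In the other direction pirk, a negative regulator of the Imd immune pathway, was below 0.5 CPM in every library (log2 0.85 in the second comparison, edgeR adjusted p 0.565). The long noncoding RNA lncRNA:CR44748 was too low in males to be tested, at 0.08 CPM or less. It was at 0.00 and 0.05 CPM in L3F and 1.07 and 1.11 CPM in L3W (edgeR adjusted p 0.0224).

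Next to CG3448, its divergent neighbour ghi had log2 -0.11 in M1BP RNAi against WT and 0.30 in M1BP RNAi + ZKSCAN3 against ZKSCAN3 (edgeR adjusted p 0.365). The values were -0.17 and -0.17 for phol, a DNA-binding Polycomb group protein (edgeR adjusted p 0.534), and 0.44 and -0.28 for CG3529 (edgeR adjusted p 0.563). Next to PolZ2, CG2926 had log2 0.17 and 0.05 (edgeR adjusted p 0.818), and noi had 0.53 and 0.13 (edgeR adjusted p 0.722). PolZ2 reads can be counted for noi as well, so that part of the noi value may be PolZ2 reads. In females noi was lower in L3W (log2 -0.61, SE 0.11, edgeR adjusted p 0.0134) and PIG-M also (log2 -0.63, SE 0.12, edgeR adjusted p 0.0174).

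**Figure D4:**
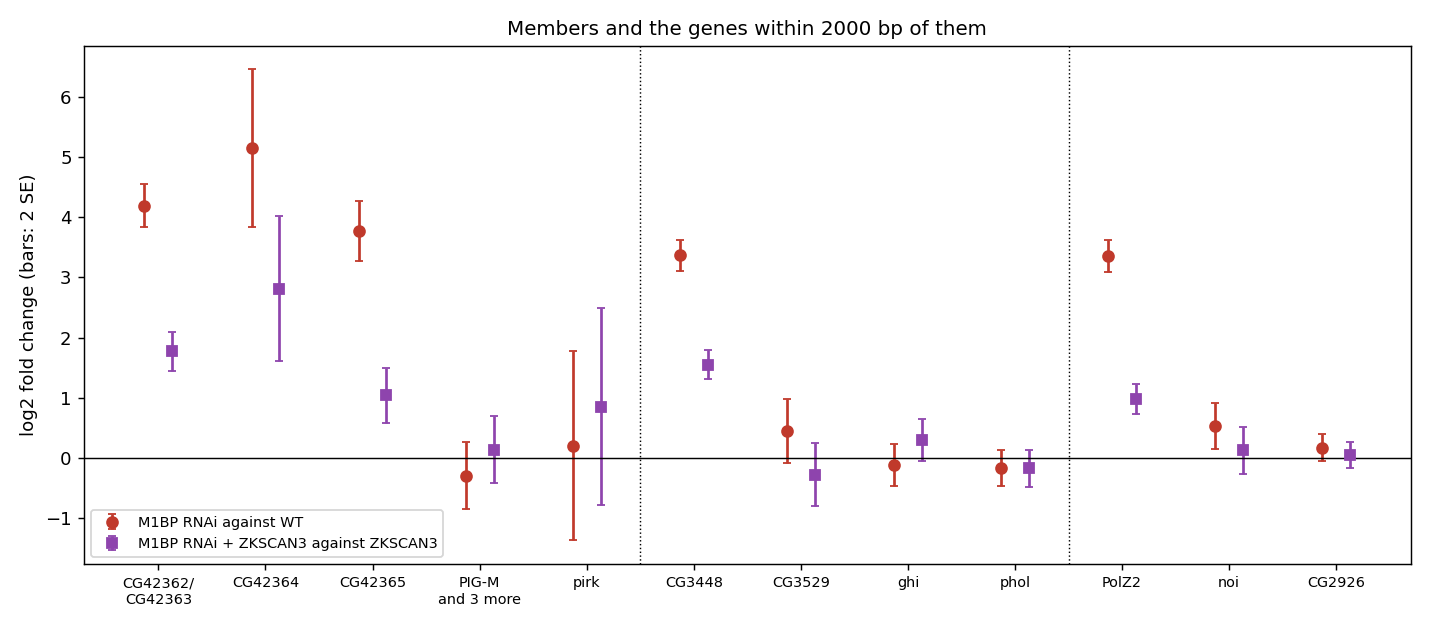
Log2 fold changes of the members and of tested genes within 2000 bp, by locus (dotted lines), with bars of 2 standard errors, in M1BP RNAi against WT (circles) and in M1BP RNAi + ZKSCAN3 against ZKSCAN3 (squares). CG42364 (5.15) and CG42365 (3.77) accompany CG42362, while the genes beside CG3448 and PolZ2 lie between -0.28 and 0.53. Part or all of the CG42364 counts may be reads of CG42362, which overlaps it.

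In S2 cells a ZKSCAN3 peak covered the starts of all 3 loci, as it did for 59.5% of the tested genes. The peak at CG42362 was chr2R:21664010-21665503 (score 62.0) and included both of its starts. That at CG3448 was chr3L:9450960-9454020 (score 116) and extended over ghi, and that at PolZ2 was chr3R:5587879-5589496 (score 100.1) and extended to the start of CG2926. The median score of the 8991 ZKSCAN3 peaks was 77.1, and what the score measures was not stated. The list merges 2 ChIP replicates, and the genotype label of the second reads ZKSCAN4 where its title and cell line read ZKSCAN3. Their ranks by score were 5409 for CG42362, 2199 for CG3448 and 3184 for PolZ2.

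ZKSCAN4 peaks were also near the 3 loci, within 500 bp of each start, as for 41.2% of tested genes (63.4% for ZKSCAN3). A ZKSCAN4 peak of score 19.6 covered the start of PolZ2, one of score 19.7 covered only the second start of CG42362, and one of score 18.8 lay 229 bp upstream of the start of CG3448. These 3 scores were under the ZKSCAN4 median of 27.5. A further ZKSCAN4 peak of score 74.2 ended at position -243 from the first start of CG42362, and one of score 29.7 ended at position -327 from that of PolZ2 (bp, negative upstream), both above that median. CG42365 had a further peak over its start for both proteins, with a score of 35.7 for ZKSCAN3 and 53.2 for ZKSCAN4. GGTCACAC, the Motif 1 core, had no match in the whole ZKSCAN3 peak at any of the 3 loci, while TATCGATA had 1 in the peak at CG3448, 273 bp from its start and inside the span between it and ghi.

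Other genes of DNA repair and of the mitotic checkpoint, 46 in all, were compared with PolZ2 because DNA polymerase zeta acts in DNA repair and PolZ2 is related to the checkpoint protein Mad2. In M1BP RNAi + ZKSCAN3 against ZKSCAN3, 44 of them were tested, 5 were higher at 0.05 and 0 lower, beside 2.8% and 1.59% of all tested genes. Their median log2 fold change was 0.62, with 39 of 44 above 0, beside 47.9% of all tested genes. The lists were chosen with earlier results of these data known, so these and the later counts over the lists are description only. In homologous recombination, rad50 and nbs, 2 subunits of the complex that senses double strand breaks, passed with log2 2.52 (SE 0.20, edgeR adjusted p 0.00743) and 2.11 (SE 0.22, edgeR adjusted p 0.0129). The rad50 level was 1.86 and 2.13 CPM in ZKSCAN3 and 9.74 and 13.1 CPM in M1BP RNAi + ZKSCAN3.

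In DNA damage signalling, 2 of 11 genes passed. These were p53, a transcription factor of the damage response (log2 2.25, SE 0.23, edgeR adjusted p 0.0129), and tefu, the fly ATM kinase (log2 2.26, SE 0.42, edgeR adjusted p 0.0418). In end joining Irbp, the fly Ku70, passed as 1 of 4 (log2 1.71, SE 0.33, edgeR adjusted p 0.046). Of the 6 translesion synthesis genes tested, which include PolZ1, none passed in either direction, nor did any of the 8 of interstrand crosslink repair or the 7 of the mitotic checkpoint. In M1BP RNAi against WT, 9 of the 44 genes were past 0.05 as higher and 0 as lower, beside 3.93% of all tested genes as higher, 2 of the 6 translesion synthesis genes among them. Their median was 0.36, beside 0.11 over all tested genes.

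**Figure D5:**
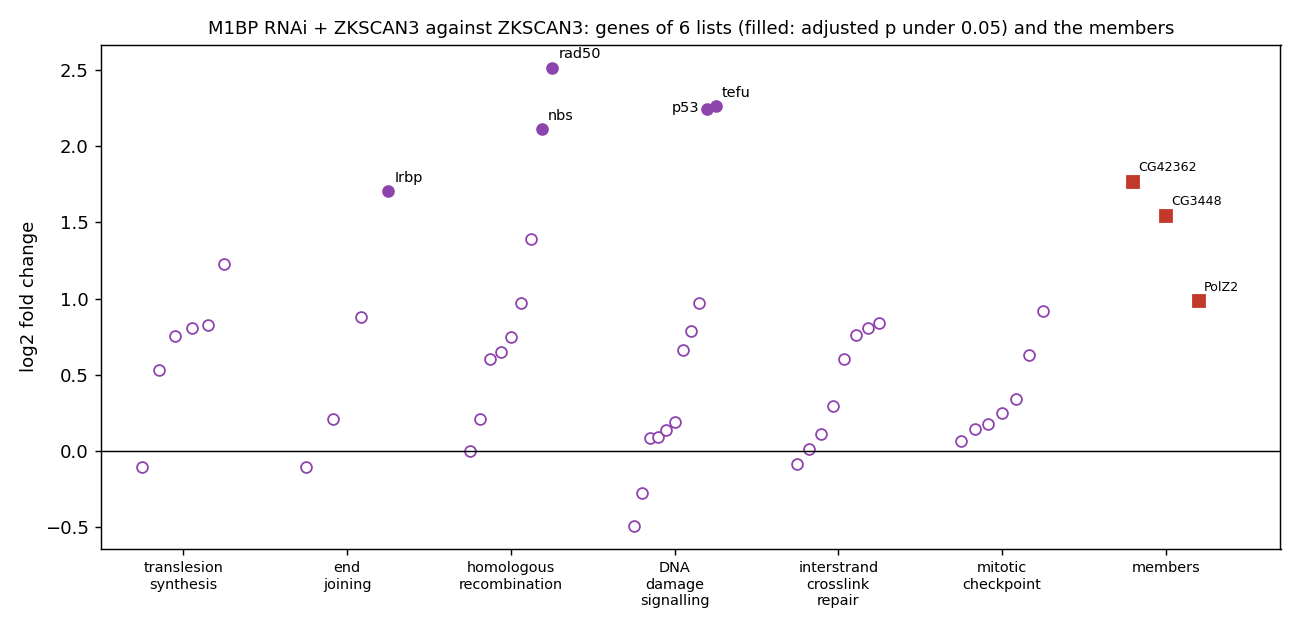
Log2 fold changes in M1BP RNAi + ZKSCAN3 against ZKSCAN3 of the tested genes of 6 lists (circles, filled where the adjusted p was under 0.05) and of the members (squares). The 5 filled genes are rad50 (2.52), tefu (2.26), p53 (2.25), nbs (2.11) and Irbp (1.71), and the members lie at 1.77, 1.55 and 0.98.

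In L3W against L3F the same lists went both ways, with 3 genes higher and 4 lower at 0.05 of 44 tested, beside 23.3% and 24.7% of all tested genes. In translesion synthesis PolZ1, the partner of PolZ2, was lower (log2 -1.07, SE 0.16, edgeR adjusted p 0.00753), as were the deoxycytidyl transferase Rev1 (log2 -0.88, edgeR adjusted p 0.0147) and PolQ, the polymerase of theta-mediated end joining (log2 -0.91, edgeR adjusted p 0.0204). Among those higher were mre11 (log2 0.75, edgeR adjusted p 0.0233) and the checkpoint kinase Mps1 (log2 1.49, edgeR adjusted p 0.00298), while Mad1 was lower (log2 -0.76, edgeR adjusted p 0.0129). PolZ2 itself, at log2 0.23, passed in neither direction.

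The genes whose levels followed those of the members most closely over the 8 male libraries were found by Pearson's r of log2 CPM among 11719 tested genes. These values describe 4 genotypes of 2 libraries and are given without a test. Nearest to CG42362 were akirin, a nuclear cofactor of transcription (r = 0.995), CG8209 (0.995) and Ada2b, a subunit of the SAGA complex (0.994). Their differences were smaller, with akirin at 114 and 118 CPM in WT and 171 and 170 CPM in M1BP RNAi, and Ada2b at 13.8 and 14.95 CPM against 47.6 and 46.7 CPM. Nearest to CG3448 were the antisense RNA asRNA:CR44962 (0.993), whose reads cannot be told from those of its partner without strand, CG46315 (0.993) and Karl (0.993). Nearest to PolZ2 were CG33469 (0.996), the splicing factor U2af50 (0.994) and CG8813 (0.993). Over 0.95 were 101 genes for CG42362, 160 for CG3448 and 104 for PolZ2. Among the members r was 0.979 for CG3448 with PolZ2, 0.977 for CG42362 with PolZ2 and 0.947 for CG42362 with CG3448.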

How the data were processed

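Per the file headers, the authors counted reads with featureCounts 1.6.1 over the exons of FlyBase release 6.19, unstranded and each mate on its own. The reads had been aligned to dm6 with Subread. The deposited values are raw counts per gene, with the exon length in bp, and a read over several genes was counted for each. The deposited peak lists came from MACS2 at an irreproducible discovery rate over merged replicates, and what their score column holds was not stated. The deposited lists of genes that passed the authors' threshold hold their own fold changes and adjusted p-values and were not used.

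The tests used the quasi-likelihood method of edgeR 4.0.16 under R 4.3.3 on genes kept by filterByExpr, with TMM scaling and p-values adjusted after Benjamini-Hochberg over all of them (threshold 0.001, alternative 0.05), in 1 fit of the 8 male libraries and 1 of the 4 female libraries. CPM used TMM factors and TPM the deposited exon lengths. A count of 0 allows up to 3 counts, or 0.0305 to 0.059 CPM in males, which covers counting error only. The labels do not say that libraries came from separate crosses, so p-values measure the spread between these samples. Alternatives were DESeq2 1.42.0, its size factors, only the compared groups, no filter, a replicate block, each library left out, TPM, Spearman's rho and other peak settings.

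The build was checked by gene positions, and 17229 of 17358 (99.3%) had the same coordinates in the Ensembl annotation. Symbols were matched for 17358 of 17494 gene IDs. Peaks counted at a start if within 500 bp of it. The members and the gene lists were chosen with earlier results of these data known. Named were the members, M1BP, every gene within 2000 bp, the 3 genes next by p in M1BP RNAi against WT, the 3 genes nearest to each member by Pearson's r (log2 of CPM plus 0.5), and, in M1BP RNAi + ZKSCAN3 against ZKSCAN3 and in L3W against L3F, up to 4 genes per list past 0.05, largest log2 fold change first. The values of 1 listed gene that this rule names are not reported here.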

Additional observations from a re-analysis of the deposited data

How the results depend on the processing

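In M1BP RNAi + ZKSCAN3 against ZKSCAN3, 0 members passed 0.001 in edgeR and 4 passed at 0.05, with DESeq2 at 0.001 (4) and, in settings chosen after seeing the data, with DESeq2 at 0.05 (4) and when leaving out each library in turn at 0.05 (3 to 4). In L3W against L3F, 0 passed 0.001, 1 passed at 0.05 and 1 with DESeq2 at 0.05, and leaving out each library in turn at 0.05 gave 0 to 1. With the replicate number as a block, 4 members passed 0.05 in the first comparison and 1 in the second, settings also chosen after seeing the data, and 0 passed 0.001. Same-numbered libraries correlated between -0.08 and 0.34 in their deviations in males and at -0.02 in females. The highest values were 0.34 for WT with M1BP RNAi and 0.30 for ZKSCAN3 with M1BP RNAi + ZKSCAN3. With the block, edgeR called 0 of 11723 genes at 0.001 in M1BP RNAi against WT, where the fit without it called 4. Not every pair was over 0.1 and no label says that a number marks a shared day or batch, so the samples were not treated as paired. For M1BP RNAi + ZKSCAN3 against M1BP RNAi the median of the members was -2.39 on the log2 scale with CG42362 and CG42363 counted apart (-1.90 over the 3 loci), and leaving out each library in turn gave -2.43 to -2.28. With only the peaks that scored above the median of each list, 2 loci had a ZKSCAN3 peak and 2 a ZKSCAN4 peak at the start, in place of 3 each. None of the 9 genes nearest to a member by Pearson's r was among the 3 nearest by Spearman's rho. The cause of these changes was not tested. With 2 libraries per group, each fit with 1 library left out rests on the spread of the other groups.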
